A study of Mus musculus with 2 samples.

Results

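The regions described here are single-copy stretches of the mouse genome that consist mostly of repeats and that a reporter assay listed in activated T helper 1 (Th1) cells. A region was taken when over 50% of its bases are soft-masked (written in lower case in the reference as repeats) and when the 300 bp around its centre match fewer than 2 places in the genome at 95% identity or more over 240 bp or more. On chromosomes 1 to 19 this gave 692 regions of the 14994 in the authors' deposited table. Another 21 that pass the same limits on chromosomes X and Y were left out, because the rule covers the autosomes. Beyond being listed at an adjusted p under 0.01, no effect entered the rule.

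The assay was STARR-seq, in which genomic fragments sit in a transcribed part of a reporter on an episome, and each fragment's share in RNA is set against its share in the input DNA. There was 1 group: primary Th1 cells of C57BL/6NJ mice, transiently transfected, with 2 output libraries from biological replicates. Over 4 days they received 10 ng/mL of IL-12 p70, the same dose of IL-2, and 2 ug/mL of anti-IL-4. Stimulation through CD3e (antibody at 0.25 ug/mL) and through CD28 (1 ug/mL) lasted 3 days. The labels give some of these doses for 1 of the replicates only, and they give neither age nor sex. No expression of the cells' own genes was measured, so the labelled cell type could not be checked against markers. Both libraries were combined into 1 table, which leaves the spread between replicates and the depth behind each value unknown. The authors' p-value is the one measure of precision. The effect is the authors' own signed score. The labels and file headers state neither its scale nor its direction, and a positive effect is read as output above input. From the deposited p-values, 114722 regions were tested, of which 13.1% were listed at an adjusted p under 0.01, 10.5% with a positive and 2.52% with a negative effect. Unlisted regions were not used, so each share is a share of listed regions.

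Much of a mammalian genome descends from transposable elements. Short interspersed elements such as the mouse B1, which descends from the RNA of the signal recognition particle, are transcribed by RNA polymerase III and end in an adenine-rich tail. Long terminal repeats, left by endogenous retroviruses, carry promoters and enhancers for RNA polymerase II and are known to drive nearby genes in some tissues. Old copies differ from each other by mutations, so that each can be told from its relatives by sequence. A region can thus be single-copy at high identity and still belong to a large family.

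Sequences are shown first for the regions on which the results turn, from the GRCm38 assembly (mm10), 5′ to 3′. The first set has the highest effects with a run of the hexamer AAAACC, read on either strand, effects 5.28 and 5.08, and then the region with the lowest effect among those that match B1, −1.96, of which the first 150 bases are shown. All 3 match B1 and hold a run beyond the match. Capitals mark the longest uninterrupted tandem run, which is 69 and 63 bp of the hexamer in the first pair and 34 bp of adenine in the last.
chr14:74398876-74399125, minus strand: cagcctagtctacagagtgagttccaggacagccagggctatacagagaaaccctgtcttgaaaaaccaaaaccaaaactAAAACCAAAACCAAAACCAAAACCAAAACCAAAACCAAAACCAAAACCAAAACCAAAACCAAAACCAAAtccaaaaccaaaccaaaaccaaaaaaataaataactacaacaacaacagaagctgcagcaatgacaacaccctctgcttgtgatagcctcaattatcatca
chr3:58264801-58264975, minus strand: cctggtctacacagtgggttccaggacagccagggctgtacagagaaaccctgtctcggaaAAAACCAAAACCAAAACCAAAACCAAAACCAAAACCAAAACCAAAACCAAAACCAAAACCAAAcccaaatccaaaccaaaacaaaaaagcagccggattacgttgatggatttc
chr11:75687376-75687525, plus strand: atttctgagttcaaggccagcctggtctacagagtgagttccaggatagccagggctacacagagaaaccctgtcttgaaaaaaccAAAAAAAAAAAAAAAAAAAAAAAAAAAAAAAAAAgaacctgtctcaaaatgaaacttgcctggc

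The second set shows a family in which 1 region of 69 holds the hexamer run. The first sequence is the 300 bp around the centre of the highest of 69 related regions (effect 3.82). The listed region is its middle 150 bp, and the letters in capitals lie outside that part. The next is a 240 bp part of the region with the highest effect of all (7.76), which matches that family. Capitals mark TGANTCA (AP-1, bound by Fos, Jun and BATF factors) and TAGGTCA (ROR factors).
chr14:86810526-86810825, plus strand: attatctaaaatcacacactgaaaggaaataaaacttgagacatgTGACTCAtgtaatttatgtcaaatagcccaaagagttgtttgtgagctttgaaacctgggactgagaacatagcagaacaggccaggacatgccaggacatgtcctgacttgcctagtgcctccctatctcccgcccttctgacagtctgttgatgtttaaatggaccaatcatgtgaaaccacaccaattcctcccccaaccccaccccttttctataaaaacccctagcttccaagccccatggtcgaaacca
chr17:21478191-21478430, plus strand: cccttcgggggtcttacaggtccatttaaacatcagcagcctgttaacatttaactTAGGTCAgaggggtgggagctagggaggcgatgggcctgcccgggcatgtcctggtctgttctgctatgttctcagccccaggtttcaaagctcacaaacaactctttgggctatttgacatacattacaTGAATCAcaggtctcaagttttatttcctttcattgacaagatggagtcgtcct

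The last set holds a region from each of 5 smaller families whose letters are described further on. Capitals mark, in order, GAAANNGAA (letters of interferon response elements), AAGATGGCG (YY1) with AGCCAATCA (a CCAAT box, bound by NF-Y), TGTGGTT (RUNX factors), CCAATCA in the fourth sequence, and CCAATCA and ATGCAAAT (octamer factors) in the last. Their effects are 2.46, 1.94, 1.55, 2.93 and 3.92.
chr15:5631026-5631200, minus strand: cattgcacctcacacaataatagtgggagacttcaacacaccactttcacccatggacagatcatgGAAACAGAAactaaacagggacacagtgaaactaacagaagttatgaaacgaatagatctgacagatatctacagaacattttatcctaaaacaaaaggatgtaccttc
chr4:127008451-127008725, plus strand: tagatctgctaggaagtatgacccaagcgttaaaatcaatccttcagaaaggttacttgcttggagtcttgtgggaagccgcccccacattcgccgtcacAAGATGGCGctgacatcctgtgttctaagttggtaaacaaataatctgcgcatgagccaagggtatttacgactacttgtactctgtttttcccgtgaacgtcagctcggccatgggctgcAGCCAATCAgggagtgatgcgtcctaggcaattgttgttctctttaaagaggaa
chr3:103184576-103184750, plus strand: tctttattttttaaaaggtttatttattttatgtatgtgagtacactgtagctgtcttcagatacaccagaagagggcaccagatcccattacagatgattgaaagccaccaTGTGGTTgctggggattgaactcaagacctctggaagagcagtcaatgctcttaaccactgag
chr13:94312926-94313125, plus strand: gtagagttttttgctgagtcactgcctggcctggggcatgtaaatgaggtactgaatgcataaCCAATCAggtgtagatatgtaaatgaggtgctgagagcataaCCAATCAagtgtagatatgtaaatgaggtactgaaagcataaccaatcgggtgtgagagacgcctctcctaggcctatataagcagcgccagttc
chr19:3657126-3657350, plus strand: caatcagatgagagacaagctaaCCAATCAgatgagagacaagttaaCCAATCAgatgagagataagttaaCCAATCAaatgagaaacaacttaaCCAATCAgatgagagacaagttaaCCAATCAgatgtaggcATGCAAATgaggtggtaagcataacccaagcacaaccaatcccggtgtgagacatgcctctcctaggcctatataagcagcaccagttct

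The single-copy repeats were almost all positive and had larger effects than other listed single-copy sequence. Of the 692 regions, 654 had a positive effect in the authors' deposited table, or 94.5% (95% Wilson interval 92.6 to 96.0%), and 38 a negative one. The median effect of the positive regions was 1.18, with quartiles of 0.89 and 1.89, and effects ran from −3.31 to 7.76. An effect over 2 was found in 152 regions, or 21.97% (19.04 to 25.2%). Wilson intervals here and below cover counting error over regions only, and related regions are not independent of each other.

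Over all listed regions on chromosomes 1 to 19, 80.6% were positive and 5.37% had an effect over 2. The other 13049 single-copy regions were positive in 78.7% (78.0 to 79.4%), with a median of 0.77 among positive regions and an effect over 2 in 1.25%. Their 5786 distal members, which have no transcript start within 1000 bp of the centre, were positive in 84.96%, with a median of 0.745 and an effect over 2 in 2.13%. The 154 mostly repeat regions with several copies went further, with 153 positive, a median of 2.11 among positive regions and an effect over 2 in 53.9% (46.0 to 61.6%). The single-copy repeats therefore lay between these sets in the median and in the share over 2.

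Over all single-copy regions, the positive share and the median effect were mostly higher with more masked bases, on both sides of the 50% limit. The medians of the most masked categories had no steady order, with 1.46 at over 70 to 80% and 1.26 at over 80 to 90%. With up to 10% masked bases 78.2% of 9099 regions were positive. In the category just below the limit, over 40 to 50%, 85.5% of 256 were positive with a median of 0.95 among positive regions. Just above it, over 50 to 60%, 89.9% of 198 were positive with a median of 1.00. Above 90% masked, 97.9% of 146 were positive with a median of 1.34. Effects over 2 made up 0.846% of the least masked category, 9.77% just below the limit, 14.1% just above it and 24.7% in the most masked. Location moved with masking too, since 34.97% of the least masked category and 88.3% of that just below the limit were distal. In distal regions alone the positive share below the limit did not rise steadily. It was 85.8% with up to 10% masked, 81.6% at over 20 to 30% and 87.2% at over 40 to 50%. Their medians among positive regions were 0.73, 0.79 and 0.955.

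**Figure D1:**
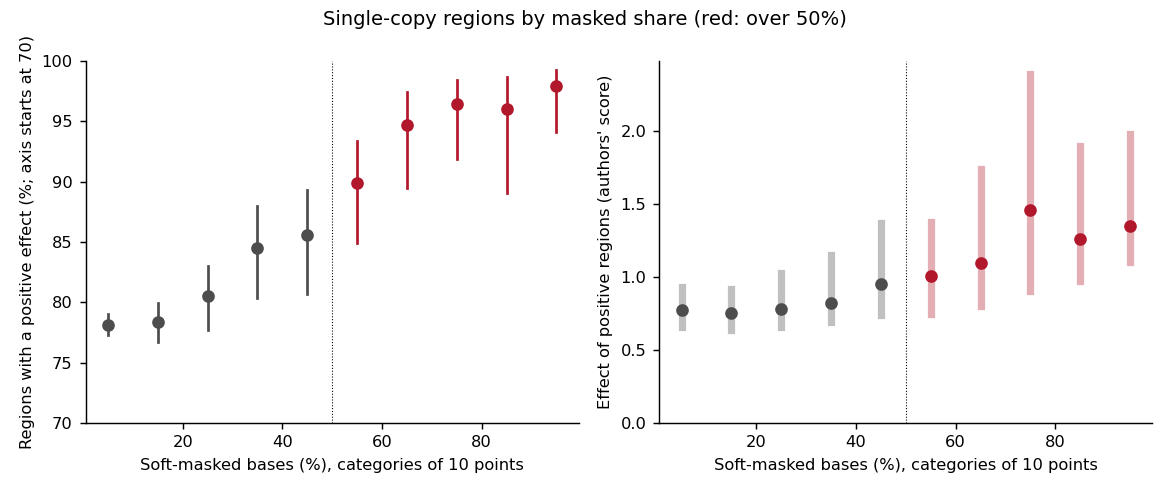
Single-copy regions on chromosomes 1 to 19 in categories of 10 points of soft-masked bases (x axis, percent). The left panel gives the percentage with a positive effect with its 95% Wilson interval, on an axis that starts at 70%, and the right panel the median (point) and quartiles (bar) of the authors' effect over positive regions. The positive share lies at 78.2% at the left and 97.9% at the right, and the median is highest (1.46) at over 70 to 80%. The dotted line is the 50% limit.

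The nearest 3 inside, with 50.1 to 50.2% masked, had effects of 0.69 (chr5:20791851-20792675, in an intron), 0.98 (chr8:64946601-64946925, 422 bp from a start of Tmem192) and 0.64 (chr3:95861876-95862150, 6128 bp from Prpf3). The nearest 3 outside, at 50%, had 0.71 (chr11:101140401-101140500), 1.95 (chr8:106503301-106503500) and 1.82 (chr2:143909176-143909675, near Dstn). Over wider bands, 97 of the 107 regions with up to 55% masked were positive, and 88 of the 104 with over 45 to 50%. The median of positive regions was 0.94 in both bands.

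The single-copy repeats were poor in GC and CpG, narrow and distal. Their median GC share was 46.7%, against 50.9% in the other distal single-copy regions, and their CpG observed over expected was 0.16. Their median width was 275 bp. The centre of 641 (92.6%, 90.4 to 94.4%) lay over 1000 bp from any annotated transcript start, against 44.3% of the other single-copy regions. By location, 361 were intergenic, 318 lay in introns, 4 in non-coding exons, 7 in untranslated parts of exons and 2 in coding exons. They were spread over all 19 autosomes, with 17 to 48 on each, and the median effect per chromosome ran from 0.96 to 1.42. Of the 692, 25 had another of them within 10 kb, and 204 had any other listed region within 10 kb.

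Low GC went with negative effects in other distal sequence but not in the single-copy repeats. Under 40% GC, 81 of 87 single-copy repeats were positive (93.1%, 85.8 to 96.8%), while 70 of 285 other distal single-copy regions were (24.6%, 19.9 to 29.9%). At 40 to 45% GC the shares were 92.2% of 167 and 56.2% of 799, and at 45 to 50% they were 95.7% of 254 and 90.4% of 1434. From 50 to 55% GC both were high, at 99.3% and 97.5%. At 60% GC and over, 16 of 22 single-copy repeats were positive, and the intervals of both sets overlapped. Effects over 2 were also most frequent in the AT-rich single-copy repeats, at 43.7% under 40% GC against 2.46% of the others, and stood at 8.15% against 1.78% at 50 to 55%. The 90 regions with a run of the hexamer AAAACC, described further on, had a median GC of 42.5% and held 60 of the 152 effects over 2. GC categories without these regions were not made.

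**Figure D2:**
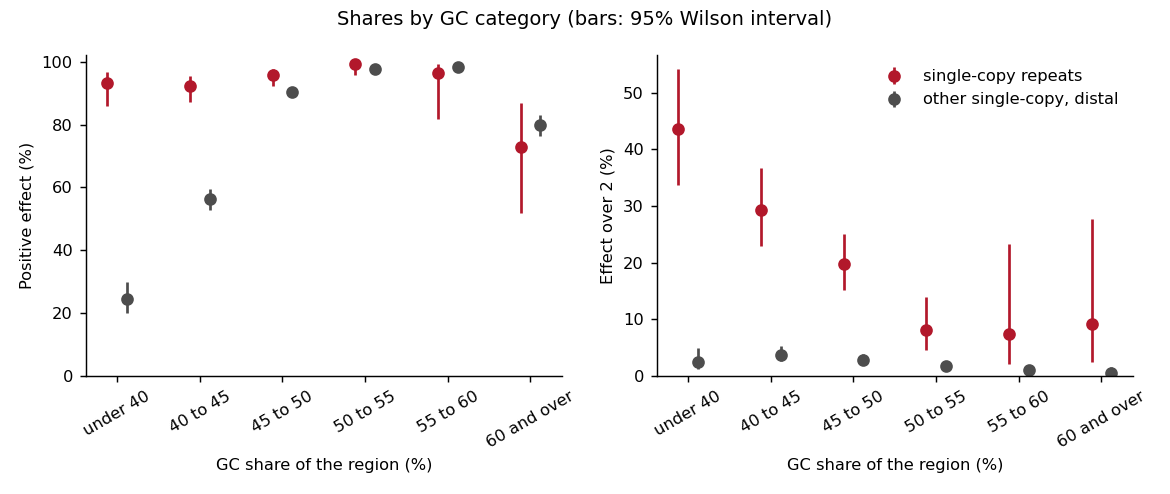
Percentage of regions with a positive effect (left) and with an effect over 2 (right) by GC share of the region, for the 692 single-copy repeats (red) and the 5786 other distal single-copy regions (grey), with 95% Wilson intervals. On the left the intervals lie apart below 50% GC and overlap from there upwards, and on the right the red points are highest under 40% GC.

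When the other single-copy regions were weighted to the GC (categories of 5 points) and location (promoter or distal) of the single-copy repeats, 74.8% were positive (73.5 to 76.1% at an effective number of 4375), with a median of 0.76 (0.75 to 0.77) among positive regions and 2.72% over 2. Weighting by width as well gave 76.9%, 0.76 and 3.30%. The values of the single-copy repeats, 94.5%, 1.18 and 21.97%, lay outside these intervals. These are descriptions of 1 table, and whether another property of the sequence accounts for the gap was not tested.

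Width moved with the effect. Of the 251 single-copy repeats over 150 to 300 bp wide, 249 were positive and 34.3% had an effect over 2. Among the 143 of up to 150 bp, 125 were positive and 13.3% were over 2, and among the 111 over 500 bp, 104 were positive and 8.11% over 2. In other distal single-copy regions of over 150 to 300 bp, 91.2% were positive and 3.01% over 2. Of the 90 single-copy repeats with a hexamer run, 62 were under 300 bp wide, and width categories without them were not made.

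Distance to a start moved with the effect too. The 51 regions within 1000 bp of a start had 42 positive, a median of 0.87 among these, and 4 effects over 2. Between 5 and 20 kb, 285 of 300 were positive with a median of 1.15, and beyond 100 kb all 18 were positive with a median of 1.57. Protein-coding starts lay within 1000 bp of 26 regions, and 0 of these had an effect over 2.

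The hexamer run was frequent among the highest effects. Tandem runs of a unit of 1 to 6 bp, uninterrupted over 20 bp or more, were found in 143 of the single-copy repeats (20.7%, 17.8 to 23.8%) and in 8.35% of other single-copy regions. The rule selects for bases masked as repeats, so a higher share here is built into it. In 90 of the 143 the longest run had the unit AAAACC, read in either direction and from any of its bases. Adenine followed with 10 regions, AC with 8 and AG with 6. All 90 regions with the hexamer run were positive, with a median of 2.70, a lower quartile of 1.67 and 60 effects over 2. They made up 33 of the 50 highest effects and lay on 19 chromosomes. Of the 602 regions without it, 92 (15.3%) had an effect over 2 and the median of positive regions was 1.11.

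Hexamer runs of 40 bp or more went with higher effects than shorter ones. The 39 regions with 20 to 39 bp had a median effect of 1.53, and 11 of them were over 2. The 17 with 40 to 59 bp had a median of 2.95, the 19 with 60 to 79 bp a median of 3.49, and the 15 with 80 bp or more a median of 2.90. Effects over 2 were found in 16, 18 and 15 of these. Across the 90 regions Pearson's r of run length and effect was 0.61 and Spearman's rho 0.73. This is given as a description, because all points come from 1 table and share base composition.

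**Figure D3:**
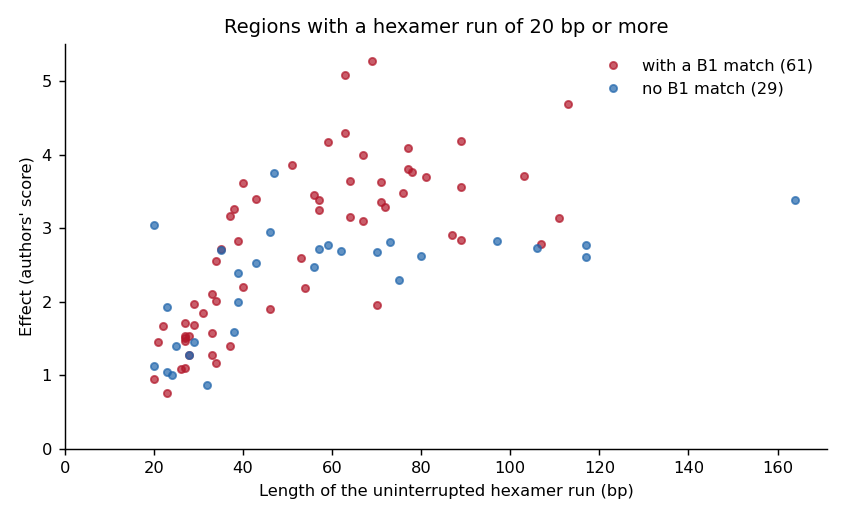
Effect in the authors' table (y axis) against the length of the uninterrupted hexamer run in bp (x axis) for the 90 single-copy repeats with a run of 20 bp or more, in red for the 61 that match B1 and in blue for the 29 that do not. Effects go up between 20 and about 60 bp and then level off, with the highest values (5.28 and 5.08) in regions that match B1.

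Many of the regions with the run also matched B1. A match of 60 bp or more at 70% identity or more to the B1 copy annotated in RefSeq was found in 126 single-copy repeats (18.2%) and in 0.667% of other single-copy regions, with a median identity of 89.7%. On the strand that reads as B1, the run was AAAACC in 61 of 61 regions with both. A stretch of repeated hexamers began within 20 bp of the end of the match, on either side of that end, in 52. Where the whole run began was not measured. The 61 with B1 and the run had a median of 2.84, while 56 of the 65 with B1 and no such run were positive with a median of 0.985 among these. Without B1, 29 regions with the run were all positive with a median of 2.62, and 508 of 537 with neither were positive with a median of 1.12. Higher medians were found with the run, whether or not B1 was matched.

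Adenine, AC and AG runs had lower medians than the hexamer. Adenine was the longest run in 10 regions, 4 of them positive. The 4 of these 10 that match B1 were all negative, from −1.96 to −0.98, among them the sequence shown from chr11:75687376-75687700 in an intron of Crk, which encodes a signalling adaptor. Among the other single-copy regions 71 of 207 with adenine as the longest run were positive. The 8 regions with AC runs were positive with a median of 1.145, and 5 of 6 with AG runs were positive. Of all 143 regions with a run, 72 had an effect over 2: 60 with the hexamer, 1 with AC and 0 with adenine or AG. The rest of the 72 held less frequent units, among them AAAACT (2.18 and 2.63) and AAGACC (2.79), which differ from the hexamer by a single letter. Such regions are counted here as without the hexamer run, and not all with less frequent units were over 2. In single-copy regions that are not mostly repeats the hexamer run was present in 57 of 13049, all positive, with a median of 1.95 and 27 effects over 2.

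Seen from the genome, long hexamer runs were listed often. Chromosomes 1 to 19 hold 247 uninterrupted hexamer runs of 40 bp or more, and 79 of these overlapped a listed region (31.98%, 26.48 to 38.04%), all 79 a positive one. Several runs may lie in 1 region, and the unit was chosen after the regions above were seen. Of 1640 runs of 20 to 39 bp, 90 did (5.49%). Listed regions cover 0.373% of the bases of these chromosomes, a share of bases, while a run counts when any part of it overlaps. Runs of 40 bp or more of adenine overlapped a listed region in 0.188% of 2664, of AC in 0.0755% of 100634, of AG in 0.0777% of 63036, and of the pentamer AAAAC, the hexamer less a cytosine, in 0.181% of 4415. The share was 0 to 0.0320% for the 3 other units counted. Runs that were tested without being listed cannot be told from runs that were not tested.

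**Figure D4:**
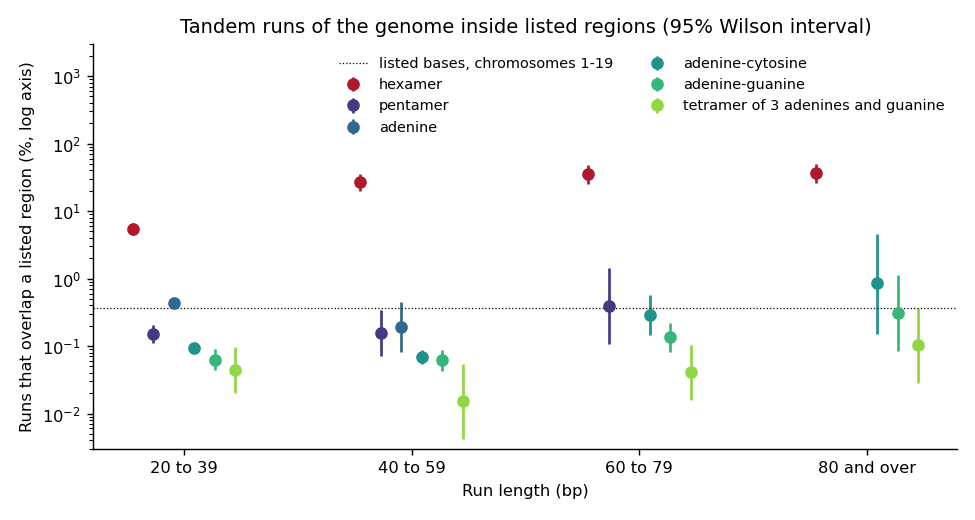
Percentage of tandem runs on chromosomes 1 to 19 that overlap a listed region (y axis, log scale) by run length (x axis, bp), for the hexamer (red) and 5 other units, with 95% Wilson intervals and categories with 0 overlaps left out. The hexamer goes from 5.49% at 20 to 39 bp to 37.1% at 80 bp and over, and the other units lie at 0.847% or less. The dotted line is the 0.373% of bases that are listed.

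Most of the single-copy repeats have diverged relatives. With matches of 75% identity or more over 100 bp or more, 541 (78.2%, 74.95 to 81.1%) had 10 or more matches on chromosome 19 besides their own position, 21.5% had 1000 or more and 71 had 0. The median effect of positive regions was 1.02 for those with 0 matches, 1.025 for 1 to 9, 1.25 for 10 to 99, 1.105 for 100 to under 1000 and 1.52 for 1000 or more, so the effect did not follow the number of relatives step by step. Positive regions made up 84.5% of those with 0 matches and 97.9% of those with 100 to under 1000.

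Compared with each other at 80% identity or more over 150 bp or more, 382 of the 692 fell into 37 similarity groups, of which 14 held 5 or more regions. The groups are numbered here by size, and medians of single groups are over all their effects. No library of repeat families was used, so that apart from the match to B1 the groups carry no family name. The 324 regions in the 14 large groups were positive in 98.8% with a median of 1.58 among positive regions and 34.6% over 2. The 310 in no group were positive in 89.4% with a median of 0.95 and 9.68% over 2, and they held 33 of the 38 negative effects. Groups 1 and 2 and the hexamer run accounted for 108 of the 152 effects over 2. Without these 177 regions, 93.0% of the remaining 515 were positive, with a median of 1.02 and 8.54% over 2. Other single-copy regions weighted to those 515 by GC and location, the hexamer run left out as well, had 77.2%, 0.75 and 2.00%.

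**Figure D5:**
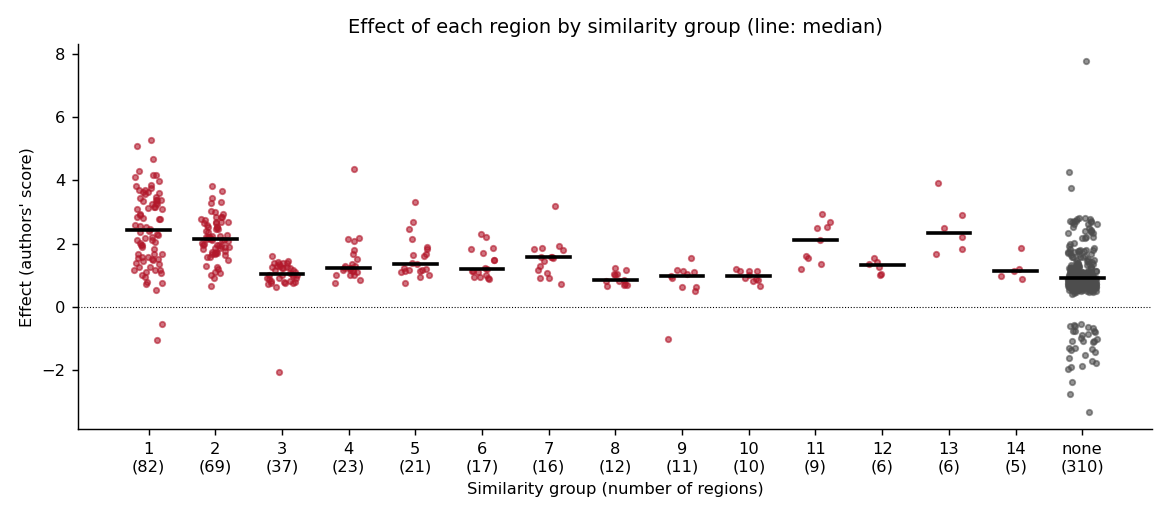
Effect of each of the single-copy repeats in the 14 similarity groups of 5 or more regions (x axis, number of regions in brackets) and of the 310 in no group, in the authors' score (y axis), with the median as a line. Groups 1, 2, 11 and 13 have medians over 2, the other 10 groups lie between 0.84 and 1.57, and most values below 0 are in no group.

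Group 1 is the B1 group. Of its 82 regions 77 match B1 and 63 hold the hexamer run, and it had a median effect of 2.43 and a range of −1.03 to 5.28. The 63 with the run had a median of 2.90, with all positive, and the 19 without it a median of 1.345 over all effects with 17 positive. Its highest were chr14:74398876-74399125 (5.28, adjusted p 3.88e-05 in the authors' deposited table), in an intron of a long non-coding RNA gene, and chr3:58264801-58264975 (5.08, adjusted p 0.000319), both shown above, and an intronic region of Nr3c1, which encodes the glucocorticoid receptor (4.69). The sequence of the most linked member matched 41591 places on chromosomes 1 to 19 at 80% identity over 150 bp, and 155 of these (0.373%) overlapped a listed region, 147 of them a positive one. The share of bases that are listed on these chromosomes is also 0.373%. A match counts when any part of it overlaps a listed region, so the 2 shares are not of the same measure.

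Group 2 has few relatives and a large part of them was listed. All 69 regions were positive, from 0.67 to 3.82 with a median of 2.14, and 41 were over 2. They lay on 19 chromosomes, 42 intergenic and 27 in introns. The most linked member matched 476 places at 80% identity over 150 bp, and 89 of these (18.7%, 15.45 to 22.45%) overlapped a listed region, every one positive. That member was chosen for its links to other listed regions, so listed relatives entered the choice. Matches that were tested without being listed cannot be told from matches that were not tested. Matches of 100 bp or more lay in 82 listed regions, which were 51 members of the group, 27 regions with several copies in the genome (median 2.205), 3 other single-copy regions and the region described next. The highest were chr14:86810601-86810750 in an intron of Diaph3, which encodes an actin regulator (3.82, adjusted p 2.87e-05), a region with no protein-coding start within 100 kb (3.655), and chr13:117173601-117173875, 46534 bp from Emb (3.43).

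The region with the highest effect of all also held this family. It is chr17:21477701-21478600, intergenic and 10848 bp from a start of Zfp53, a zinc finger gene, and the authors' deposited table gives it 7.76 (adjusted p 2.28e-11). It is in no similarity group, since groups were formed on the central 300 bp. A 222 bp match to group 2 at 85.1% identity lay in the region, partly within and partly beyond those central bases. It was the only other single-copy repeat with a group 2 match of 100 bp or more.

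The AP-1 letters TGANTCA were in 55 of the 69 central windows of group 2, TAGGTCA in 33 and the polyadenylation signal AATAAA in 58. Within the group, regions with and without the AP-1 letters in that window, which reaches beyond narrower regions, had medians of 2.14 and 2.24. Outside group 2, the 130 single-copy repeats with the AP-1 letters had a median of 0.94 over all effects, and the 493 without them 1.12. The AP-1 letters did not therefore mark the higher effects in either set.

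Some smaller groups carried other letters nearly throughout. Groups were formed on similarity of the same central windows. Letters shared within a group, group 2 included, are therefore not separate observations. GAAANNGAA was in 21 of 21 regions of group 5 (median 1.37, 37.2% GC), whose highest were a 75 bp region with no protein-coding start within 100 kb (3.33), chr5:21342376-21342775 in an intron 30067 bp from Fgl2 (2.69) and chr15:5631026-5631200 (2.46). AAGATGGCG and AGCCAAT were each in 15 of 16 regions of group 7 (median 1.57), which also had the highest CpG observed over expected of the 14 groups, 0.61. Its highest was chr10:116613051-116613600, 31814 bp from Cnot2 (3.18). A match to group 7 also lay in 13 single-copy repeats outside it, with a median of 1.215. One of them is chr3:96489001-96489650 (4.85, adjusted p 8.31e-17), 596 bp from an annotated small nuclear RNA gene.

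Groups 11 and 13 also had medians over 2, at 2.13 and 2.35. They are related to each other: all 9 and all 6 regions had a match of 60 bp or more to the other group, at a median identity of 80%. CCAATCA was present in 7 of 9 and 6 of 6, with a median of 4 occurrences per window in group 13, and ATGCAAAT in 5 of 9 and 4 of 6. CCAATCA was added to the search after these groups were seen. The highest were chr19:3657126-3657350 in an intron of Lrp5, a co-receptor for Wnt ligands (3.92, adjusted p 4.68e-12), and chr13:94312926-94313125 27168 bp from Scamp1 (2.93, adjusted p 3.07e-07).

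The remaining groups had lower medians. RUNX letters were in 10 of 11 regions of group 9 (median 0.98) and 6 of 6 of group 12 (1.32), and STAT letters TTCNNNGAA in 9 of 10 of group 10 (0.97). The letters were not particular to 1 group each. STAT letters were also in 5 of 6 of group 12, and RUNX and AP-1 letters each in 7 of 10 of group 10. GAAANNGAA, named above for group 5, was also in 4 of 5 of group 14. Group 10 was rare in the genome, with 208 matches of which 12 (5.77%) overlapped a listed region. Octamer letters were in 10 of 17 regions of group 6 (1.20). Group 3 (37 regions, median 1.04) and group 8 (12 regions, 0.84) had 0 effects over 2. Group 4 (23 regions, 1.23) held chr13:112578151-112578750 in an intron of Il31ra, the interleukin-31 receptor (4.37, adjusted p 1.79e-11), while its next highest was 2.19. Shares of genome matches that overlapped a listed region were 0.0361 to 1.43% in the groups other than 2 and 10. The limits given for the matches of group 2 hold for those of every group.

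Across all 692, 22 sets of letters were searched on both strands in the central 300 bp, and 1 was added. This window reaches beyond regions narrower than 300 bp, and 330 of the 692 were 300 bp or more wide. The added CCAATCA can overlap AGCCAAT. AP-1 letters were in 26.7% of the single-copy repeats, 26.6% of other distal single-copy regions, 15.5% of all listed regions and 8.67% of windows 10 kb upstream of the single-copy repeats. YY1 letters were in 4.19%, against 0.380% of other distal regions and 0.145% of the upstream windows. AATAAA was in 34.97%, 15.9% and, in the upstream windows, 33.1%. Letters of GC-rich promoters were rarer than over all listed regions, with ETS (CCGGAAG) in 0.723% against 9.29% and the GC box (GGGCGGG) in 4.91% against 28.2%. The STAT letters were in 11.8% (15.3% of other distal regions), the RUNX letters in 11.4% (9.83%), and the T-box letters AGGTGTGA, of the family of T-bet, in 1.01% (1.64%). The cyclic AMP response element TGACGTCA was in 2 regions. A match is a description of letters and not a bound site.

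The other sets of letters were as follows in the single-copy repeats, with their share of all listed regions in brackets. All listed regions were distal in 47.6%, against 92.6% of the single-copy repeats, so the 2 sets differ in location too. NFAT letters TGGAAAA were in 6.94% (4.96%), GAAANNGAA in 15.5% (8.88%), NF-kB letters GGGANTTCC in 1.59% (2.32%), the E-box CACGTG in 3.47% (7.12%) and GATA letters AGATAAG in 2.75% (2.02%). ATGCAAAT was in 4.05% (1.545%), TAGGTCA in 6.36% (2.21%), TATAAAA in 5.35% (2.86%) and the RNA polymerase III B box GTTCNANNC in 21.7% (9.37%). In other distal regions and in the upstream windows, the NFAT letters were in 7.02% and 7.95%. TATAAAA was in 3.47% and 10.4% of these, and the B box in 10.5% and 16.2%. The CTCF core AGGGGGC was in 2.17% (11.65%), AGCCAAT in 5.64% (7.14%) and CCAATCA in 11.7% (7.903%). Some of these shares rest on similarity groups. In the 310 regions in no group, ATGCAAAT was in 0.645%, TAGGTCA in 1.94% and CCAATCA in 4.84%, each below its share of all listed regions. TATAAAA was in 6.13% of the 310 and the B box in 14.8%, both above it. NRF1 letters GCGCATGCG and C/EBP letters TTGCGCAA were in 0, with 1.46% and 0.144% over all listed regions.

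Most of the 38 negative regions belonged to no similarity group. Their median was −1.07, 18 of them were up to 150 bp wide, 33 were in no similarity group and 9 were within 1000 bp of a start. By GC they split, with 19 under 45% and 6 at 60% or more. The lowest was chr2:92183626-92184250, 168 bp from a start of Phf21a, which encodes a histone-binding protein (−3.31, adjusted p 2.28e-12, 67.2% GC). It was followed by 50 bp in a coding exon of Ephb2, an ephrin receptor (chr4:136835776-136835825, −2.76), and by chr4:3090176-3090250 (−2.36, 37.3% GC). A 75 bp region 233 bp from Cecr2 had −1.77 at 82.7% GC. Of the rest of the 10 lowest, an intronic region of Fmo4 (−2.05) was the negative member of group 3, and regions near Crk (−1.96) and Fcrlb (−1.90) held B1 and an adenine run. The others lay in introns of Anapc5 (−1.88) and Gm6169 (−1.60) and 55695 bp from Ezh2 (−1.69).

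Of the 10 highest effects, 6 held the hexamer run. Besides those named above these were chr6:24288851-24289125 (4.30) and chr13:85928351-85928575 (4.18), with no protein-coding start within 100 kb, and chr12:82327476-82327700 in an intron of Sipa1l1 (4.18). Another of the 10, chr2:92884001-92884225, in an intron and 30985 bp from Syt13, had 4.25 with 60.9% GC, 0 matches on chromosome 19 and no group.

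Of 56 T helper and T cell regulators, 44 were nearest to some listed region and 2 to a single-copy repeat. The counts below are small, and all listed regions were distal in 47.6%, against 92.6% of the single-copy repeats. Whether the counts depart from the shares over all listed regions was not tested. A protein-coding start lay within 100 kb of 591 single-copy repeats, spread over 563 genes with at most 2 regions each. Of the 692, 2 had 1 of 56 T helper and T cell regulators as the nearest such gene, against 97 of all 14627 listed regions on these chromosomes. The 2 were an intronic region 3730 bp from Lag3, an inhibitory receptor (chr6:124907826-124908125, 1.59, adjusted p 2.88e-08), and an intergenic one 41928 bp from Gzmb, which encodes granzyme B (chr14:56303901-56304475, 1.18, adjusted p 0.000152). The latter belongs to group 1 and holds 41 bp of AAAAC. For 52 interferon response genes these counts were 0 and 65. For 19 genes of apoptosis and the p53 response they were 1 and 32, and the 1 lay nearest to the cell cycle inhibitor Cdkn1a (chr17:29067951-29068375, 0.72, adjusted p 0.00601), which is in group 3.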

How the data were processed

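The authors deposited 1 table made from the mm10 alignments of both output libraries, per the file headers. For each region the authors' table holds an effect, which is a score with its sign and of unstated scale, computed by the authors from output against input before it was deposited. It also holds the deposited p-value and its adjusted form (q-value), as made by the authors. No source used here names the aligner, the caller or the test. The number of regions tested came from the deposited q-value times the rank of p over p, which gave 114722 within 0.5 for 82.2% of the regions.

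The members, lists, letters and named regions were chosen with earlier results of these data known. Named regions were the 10 highest and lowest effects, those at protein-coding starts with an effect over 2, those nearest to listed genes, the 3 highest of each group and those at the 50% limit. Not every region that this rule names is printed.

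Sequence and soft-masking came from RefSeq GRCm38.p6 (pysam 0.24.0, samtools 1.23.1) and starts from GENCODE M21 basic transcripts. Copies were counted with minimap2 2.31 (k = 19, w = 10, N = 50, p = 0.5) and diverged matches with blastn 2.17.0. Gene distances reach 100 kb. No test over regions was made, since regions of 1 table are not replicates. The search for tandem runs, the weighting and the Wilson intervals were tested on simulated data, and the other steps were not. Depth is unknown.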

Additional observations from a re-analysis of the deposited data

How the results depend on the processing

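The number of members changed with the limits by construction: 222 with over 80% masked, 1297 with over 30%, 417 at an adjusted p under 0.001 and 330 of 300 bp or more. The positive share was 97.3% with over 80% masked, 90.05% with over 30% and 96.2% at an adjusted p under 0.001, and the median effect of positive members 1.31, 1.04 and 1.42. The median was 1.11 without the hexamer run, 1.04 without groups 1 and 2 and 1.02 without all of these, exclusions chosen after seeing the data. The share over 2 was 15.1% with over 30% masked, 30.7% at an adjusted p under 0.001 and 18.2% of regions of 300 bp or more, and 15.3%, 11.1% and 8.54% with the same exclusions. The distal share was 96.85% with over 80% masked, 89.4% with over 30%, and 96.1% and 87.9% with promoter windows of 500 and 2000 bp. The weighted positive share of other single-copy regions was 76.3% with over 30% masked, 82.6% at an adjusted p under 0.001, 77.3%, 76.6% and 77.2% with the exclusions and 76.9% with width added, also chosen after seeing the data. Their weighted median was 0.78 with over 80% masked, 0.74 with over 30% and 0.895 at an adjusted p under 0.001. Short tandem repeats were in 12.7% at 30 bp and 28.3% at 15 bp, 10 or more matches on chromosome 19 in 82.7% at 70% identity and 54.5% at 85%, and 216 members were grouped at 90% identity. Why these values moved was not tested. The other 67 of 104 recomputed values stayed within the interval of the value reported, or within 1.5 times for counts. No paired analysis was possible because both libraries were combined into 1 table, and no library could be left out.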
